A study of Mus musculus with 6 samples.

Results

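The complement genes analysed were 36 genes of mouse liver that encode complement components, their regulators and their receptors. They were taken by gene symbol from the deposited tables, which hold 55487 genes, and all 36 were found and passed the filter on low counts. The study compared RNA from livers of male C57/Bl6J mice fed a high-fat diet (HFD), sequenced in 3 mutant and 3 control libraries. The mutants carry the genotype label RXRa f/f Alb cre+/-, and the design text speaks of an S65A form of Rxra, a nuclear receptor gene whose product pairs with many other nuclear receptors. The controls are labelled Alb cre +/- without that allele, so livers of both groups carry an albumin promoter-driven Cre recombinase, expressed in hepatocytes, although in the titles the controls are WT and the mutants Cre. Ages are not given. Nothing in the labels says that the libraries came from separate animals, and p-values therefore reflect the variation among these libraries, which may be technical.

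Complement is a cascade of plasma proteins, made for the most part by hepatocytes. It starts on antibody or microbial sugars through the classical and lectin pathways, or on any unprotected surface through the alternative pathway, and all 3 routes meet at the cleavage of C3. The terminal components then assemble into the membrane attack complex, a pore, while soluble and membrane-bound regulators protect the host's own cells. C1q, the recognition part of the classical pathway, is made chiefly by macrophages, in the liver by Kupffer cells.

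Library totals ranged from 35847386 to 43162557 estimated counts. Levels are given as TMM-scaled CPM, that is counts relative to the scaled library size, in the order of replicates 1 to 3, and log2 fold changes are mutant over control with their standard error. Adjusted p-values are from edgeR's quasi-likelihood F-test with Benjamini-Hochberg adjustment over all 14286 tested genes, and a gene was called at an adjusted p under 0.05. Rxra itself had 699.9, 522 and 609 CPM in mutant livers, against 501, 471 and 414 CPM in control livers, without overlap of the groups, and it did not pass at 0.40 ± 0.13 on the log2 scale (edgeR adjusted p = 0.0724) and was -0.20 on the TPM scale. TMM scaling sets the typical gene equal in both groups, so every rise or fall below is relative to that gene. Major urinary protein genes (Mup), very abundant transcripts of male mouse liver, made up 25.8 ± 3.30% of all TPM in mutant livers and 4.90 ± 1.36% in control livers (SD, n = 3 each). The all-gene median, on the log2 scale, was -0.40 with library totals and -0.21 with the Mup genes left out of the totals. On the log2(TPM + 1) scale it was -0.48, or -0.24 without a filter on low levels. The part of the Mup genes in these shifts was not tested.

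Complement genes changed in both directions. Of the 7 terminal components, 6 rose in mutant livers and 0 fell (the signs of 2 of the 6, Hc and C8g, turned on the log2(TPM + 1) scale), whereas 2 of the 3 C1q chains, the collectin gene Colec10 and the factor D gene Cfd fell. Over the 36 genes, 12 were called higher, 4 were called lower and 20 did not pass. Of all tested genes, 6.64% were called higher and 6.82% lower, or 13.5% in either direction. Mutant and control libraries were fully separated in 25 of the 36 genes, against 34.9% of all tested genes. The median log2 fold change of the 36 was 0.13, and that of all tested genes was 0.00025. Because the genes were chosen with results of this comparison known, these counts describe the genes and are no evidence that complement as a whole was affected. The per-gene p-values below are a description in the same way.

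**Figure D1:**
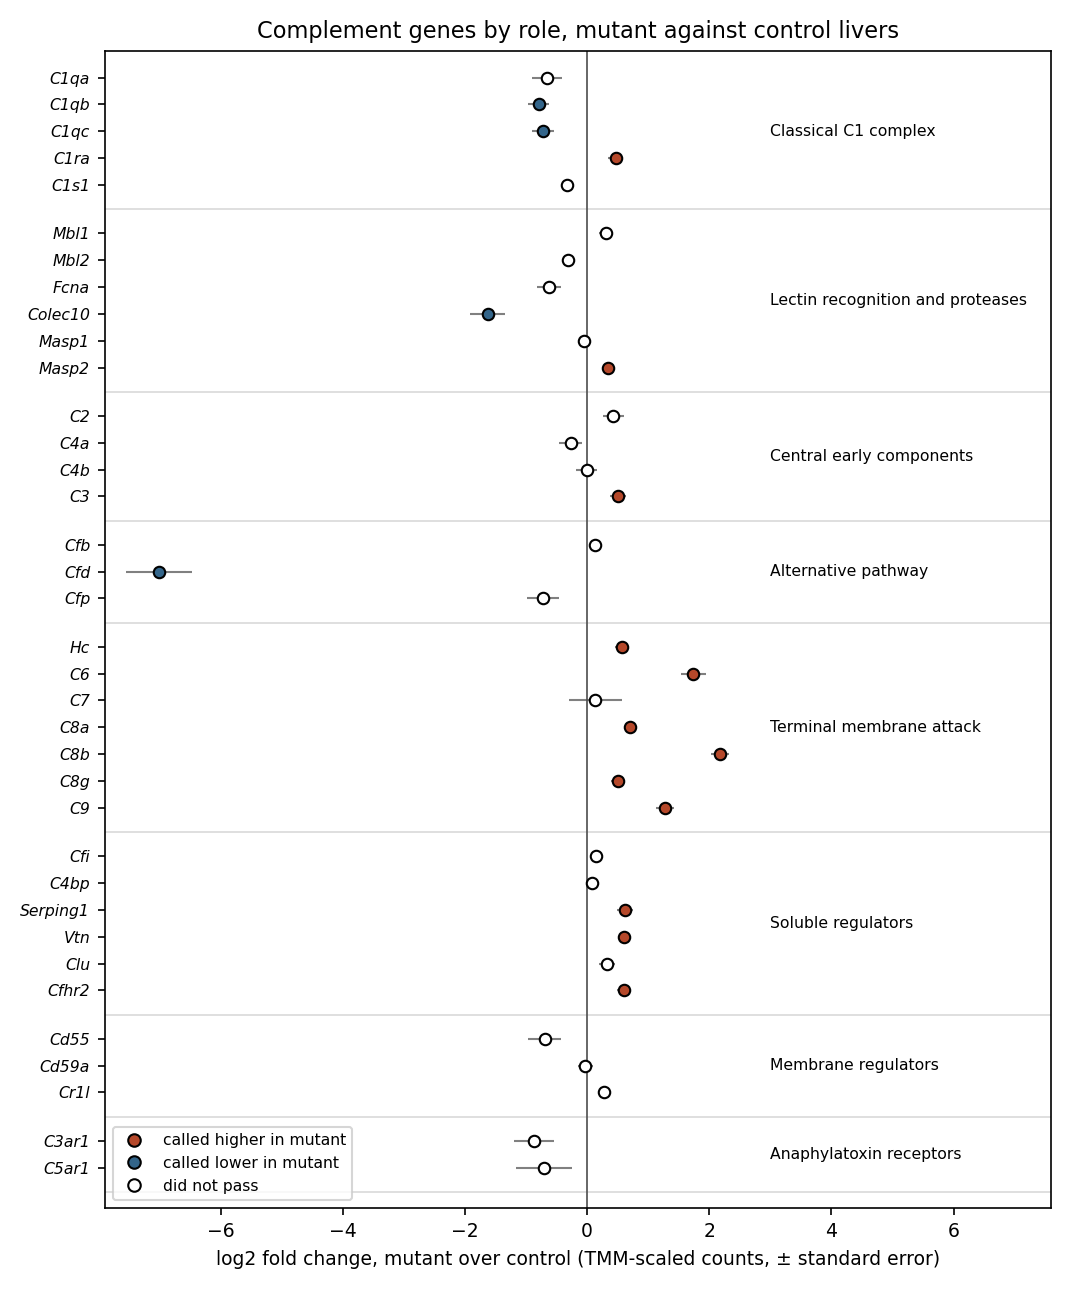
Log2 fold change of each of the 36 complement genes, mutant over control, from TMM-scaled counts (horizontal axis; bars are the standard error), with genes grouped by role from top to bottom. Filled points passed the test at an adjusted p under 0.05, in red for the 12 higher genes and in blue for the 4 lower ones. Of the 7 terminal genes, 6 are filled and lie to the right of 0 (Hc and C8g turned below 0 on the log2(TPM + 1) scale), and Cfd lies far to the left at -7.01.

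Transcript levels per length (TPM) spanned more than 3 orders of magnitude. C3, the component on which all routes converge, was the most abundant with 1598 ± 296 TPM in mutant livers and 1697 ± 128 TPM in control livers (SD, n = 3 each). It was followed by the soluble inhibitor genes Vtn, with 1284 ± 132 TPM in mutant livers and 1275 ± 110.0 TPM in control livers, and Clu, with 1027 ± 18.4 TPM in mutant livers and 1242 ± 179 TPM in control livers. At the low end C7, C3ar1 and C5ar1 stayed under 2 TPM in every library, and C7 had 0.459 ± 0.154 TPM in mutant livers and 0.624 ± 0.177 TPM in control livers. The 36 genes together made up 0.841 ± 0.0742% of all TPM in mutant livers and 0.974 ± 0.0635% in control livers, lower in every mutant library. After TMM scaling their sum was instead higher in every mutant library, with 21101, 18588 and 22024 CPM in mutant livers, against 15670.5, 16794 and 14362 CPM in control livers.

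To show the regions beside which the terminal, C1q and factor D genes start, RefSeq promoter windows (GRCm38.p6, 250 bases before to 50 bases after the start) are printed in the direction of transcription. C8b, C6 and C9 are the terminal genes with the largest rises, C8a is the neighbour of C8b, C1qb and C1qc are the called C1q chains, and Cfd had the largest fall. Capitals mark matches to any of 4 motifs on either strand: AGGTCA, the core element bound by nuclear receptors, TTCNNNGAA, bound by STAT factors, GTTAAT, part of the HNF1 element of liver genes, and AGGAAGT, a core bound by the myeloid factor PU.1.
C8b (chr4:104766067-104766366, plus strand): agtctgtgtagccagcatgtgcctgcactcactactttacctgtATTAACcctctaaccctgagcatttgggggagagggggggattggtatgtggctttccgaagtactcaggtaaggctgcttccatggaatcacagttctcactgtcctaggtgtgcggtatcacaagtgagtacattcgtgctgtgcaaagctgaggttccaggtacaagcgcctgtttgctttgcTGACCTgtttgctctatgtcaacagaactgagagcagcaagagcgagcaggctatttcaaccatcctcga
C6 (chr15:4726960-4727259, plus strand): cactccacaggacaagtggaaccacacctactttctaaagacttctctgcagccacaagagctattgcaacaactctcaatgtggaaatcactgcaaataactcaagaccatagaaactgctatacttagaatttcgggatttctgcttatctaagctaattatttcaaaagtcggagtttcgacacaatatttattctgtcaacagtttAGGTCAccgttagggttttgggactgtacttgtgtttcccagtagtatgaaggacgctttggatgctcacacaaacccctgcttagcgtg
C9 (chr15:6445096-6445395, plus strand): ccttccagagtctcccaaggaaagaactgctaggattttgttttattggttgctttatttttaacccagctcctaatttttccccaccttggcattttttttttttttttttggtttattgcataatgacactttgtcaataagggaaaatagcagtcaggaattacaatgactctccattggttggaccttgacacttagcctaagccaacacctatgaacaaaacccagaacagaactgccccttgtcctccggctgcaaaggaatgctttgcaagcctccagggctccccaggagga
C8a (chr4:104876349-104876648, minus strand): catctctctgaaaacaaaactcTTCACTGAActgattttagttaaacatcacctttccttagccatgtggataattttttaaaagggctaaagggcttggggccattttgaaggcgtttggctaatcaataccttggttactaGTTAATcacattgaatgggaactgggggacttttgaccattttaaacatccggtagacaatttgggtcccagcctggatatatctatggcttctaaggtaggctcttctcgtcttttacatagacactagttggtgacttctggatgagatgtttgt
C1qb (chr4:136886151-136886450, minus strand): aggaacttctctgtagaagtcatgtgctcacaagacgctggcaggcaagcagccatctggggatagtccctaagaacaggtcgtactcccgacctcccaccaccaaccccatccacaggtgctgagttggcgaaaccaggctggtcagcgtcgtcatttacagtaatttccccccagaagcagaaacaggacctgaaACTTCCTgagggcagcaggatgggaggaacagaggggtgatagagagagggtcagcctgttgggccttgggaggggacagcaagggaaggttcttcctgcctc
C1qc (chr4:136892865-136893164, minus strand): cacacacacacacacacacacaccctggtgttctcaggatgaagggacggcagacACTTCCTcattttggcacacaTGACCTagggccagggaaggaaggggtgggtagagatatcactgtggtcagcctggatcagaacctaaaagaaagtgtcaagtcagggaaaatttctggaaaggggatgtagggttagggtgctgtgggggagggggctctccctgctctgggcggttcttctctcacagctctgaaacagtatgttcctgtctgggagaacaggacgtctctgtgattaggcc
Cfd (chr10:79890603-79890902, plus strand): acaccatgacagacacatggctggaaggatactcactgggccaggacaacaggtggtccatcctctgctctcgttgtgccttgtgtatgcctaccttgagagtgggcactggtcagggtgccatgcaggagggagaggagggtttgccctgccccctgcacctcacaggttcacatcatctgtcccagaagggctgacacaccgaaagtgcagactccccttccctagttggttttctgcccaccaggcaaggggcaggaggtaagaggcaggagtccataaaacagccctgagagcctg
A RefSeq window was matched for 26 of the 36 genes, which gave 28 windows because C1s1 and C8g have a pair each. AGGTCA stood in 7 of the 28 windows (25%), against 16.3% of the 32851 mouse windows of the same 300 bases. TTCNNNGAA stood in 6 (21.4%, against 8.30% of all windows), GTTAAT in 10 (35.7%, against 7.10%) and AGGAAGT in 5 (17.9%, against 9.35%). No matches overlapped each other. In the windows above, AGGTCA began at -20 in C8b and at -40 in C6, counted from the RefSeq start. In some genes, C6 and C1qc among them, the GENCODE start behind the gene coordinates lies elsewhere, and distances from it would differ. C8b also held GTTAAT at -206, and C8a held GTTAAT at -107 and TTCNNNGAA at -228. None of the 4 was found in the windows of C9 and Cfd, while both printed C1q windows held AGGAAGT, C1qb at -53 and C1qc at -195, and C1qc also held AGGTCA at -174. Among the windows not printed, AGGTCA stood in those of C3, C7, Cfp and Mbl2, but not in those of Hc and C8g. AGGAAGT stood in those of Fcna, C5ar1 and Masp2, but not in those of Cfp and C3ar1. A link between motif and direction of change was not tested. These are letter matches and not measured binding.

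The terminal genes are Hc (complement C5 in the mouse), C6, C7, the 3 chains of C8 and C9. Their products join in that order, with many copies of C9 forming the wall of the pore. Summed over the 7 genes, the level was 2811, 2618 and 2944 CPM in mutant livers, against 1536, 1600.1 and 1490.0 CPM in control livers. The ratio of means was 1.81 and holds for TMM scaling only. In TPM, Hc had a mean of 220 in mutant livers and 223 in control livers, and C8g 348 and 371. The TPM means of C6, C8a, C8b and C9 were higher in mutant livers. C8b, the β chain of C8, had 298, 274 and 267 CPM in mutant livers, against 75.6, 52.4 and 57.1 CPM in control livers. Every mutant library lay far above every control, and C8b rose 4.53-fold (2.18 ± 0.15 on the log2 scale, edgeR adjusted p = 0.000249). C6 had 266, 196 and 188 CPM in mutant livers, against 84.4, 59.9 and 50.7 CPM in control livers. The groups were apart by more than the spread within either, and C6 rose 3.33-fold (log2 fold change 1.74 ± 0.21, adjusted p = 0.00195). C9 had 365, 377 and 456 CPM in mutant livers, against 133, 191 and 169 CPM in control livers. All mutant libraries lay above all controls, and C9 rose 2.43-fold (log2 fold change 1.28 ± 0.15, adjusted p = 0.00171). These 3 genes were called higher under all 6 alternative scalings and with each library left out in turn, although the log2 fold change on the log2(TPM + 1) scale was 1.58 for C8b, 1.13 for C6 and 0.69 for C9.

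The remaining terminal genes differed less. C8a, the α chain of C8, had 621, 606 and 622 CPM in mutant livers, against 405, 382 and 354 CPM in control livers. Each group was tight and the groups stood apart, and C8a rose 1.62-fold (log2 fold change 0.70 ± 0.087, adjusted p = 0.00237), but on the log2(TPM + 1) scale its log2 fold change of 0.10 was not called. Hc, whose protein is cleaved to start pore assembly, had 1017, 842 and 1119.9 CPM in mutant livers, against 641, 715 and 650.1 CPM in control livers. C8g, which encodes the lipocalin-like γ chain, had 242, 322 and 290.4 CPM in mutant livers, against 195, 198 and 208 CPM in control livers. Both genes were without overlap and rose after TMM scaling, by 0.57 ± 0.12 (adjusted p = 0.0192) for Hc and 0.51 ± 0.12 (adjusted p = 0.0253) for C8g on the log2 scale, but their sign turned on the log2(TPM + 1) scale, to -0.035 and -0.097. Both calls were lost with library totals, with or without the Mup genes. The call for Hc was also lost without mutant replicate 1, control replicate 1 or control replicate 3, and that for C8g on leaving out any library other than mutant replicate 1. C7, which anchors the growing complex in the membrane, was scarce with 0.994, 0.868 and 1.55 CPM in mutant livers, against 1.37, 0.920 and 0.810 CPM in control livers. Its libraries overlapped and its log2 fold change of 0.13 ± 0.44 did not pass (adjusted p = 0.873), with a sign that changed under several settings.

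**Figure D2:**
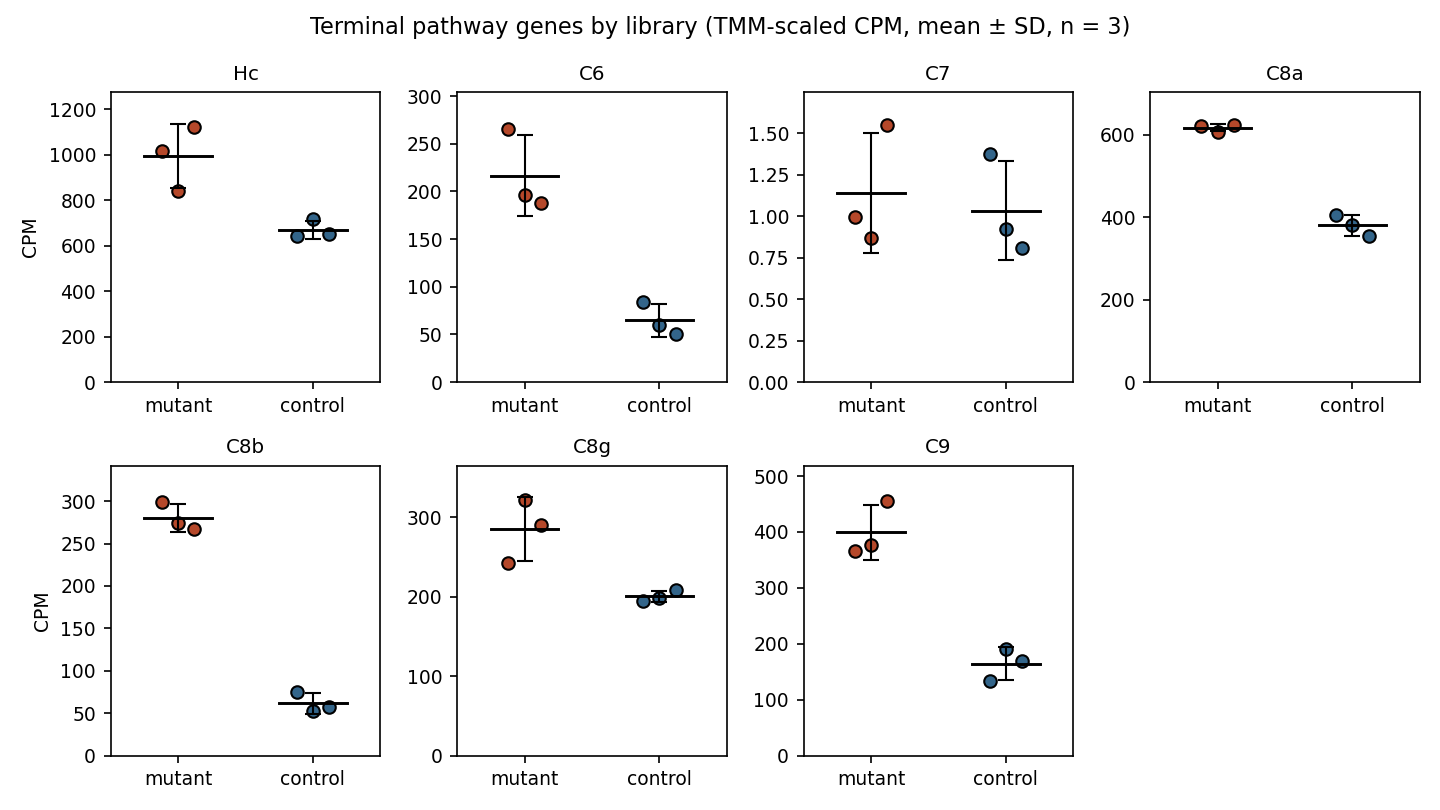
Level of each terminal membrane attack gene in every library, in TMM-scaled CPM on an axis that starts at 0 in each panel; points are libraries, with mutant livers left of control livers, horizontal bars are means and whiskers are the SD (n = 3). The groups are apart in all panels but that of C7, and the gap relative to the level is widest for C8b, with 267 to 298 CPM in mutant livers and 52.4 to 75.6 CPM in control livers.

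Ratios between genes of 1 library do not depend on how libraries are scaled. C8b and C8a lie tail to tail on chromosome 4 in mm10, C8b at chr4:104766317-104804548 on the plus strand and C8a at chr4:104815679-104876398 on the minus strand, with 11.13 kb and no other protein-coding gene between them. The ratio of C8b to C8a in TPM was 0.794, 0.747 and 0.708 in mutant livers, against 0.308, 0.227 and 0.267 in control livers. It was higher in every mutant library, 2.81 times by the group means. The ratio of C6 to C8a was 0.558, 0.423 and 0.394 in mutant livers, against 0.272, 0.205 and 0.187 in control livers, again without overlap. For C9 to C8a it was 1.15, 1.22 and 1.43 in mutant livers, against 0.645, 0.981 and 0.934 in control livers. The ratios of Hc and C8g to C8a overlapped between the groups. In the livers of both groups C8g was the most abundant C8 chain by TPM, and C8b the least. C6, C7 and C9 lie on chromosome 15, C6 and C7 174 kb apart and C6 and C9 1630 kb apart.

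**Figure D3:**
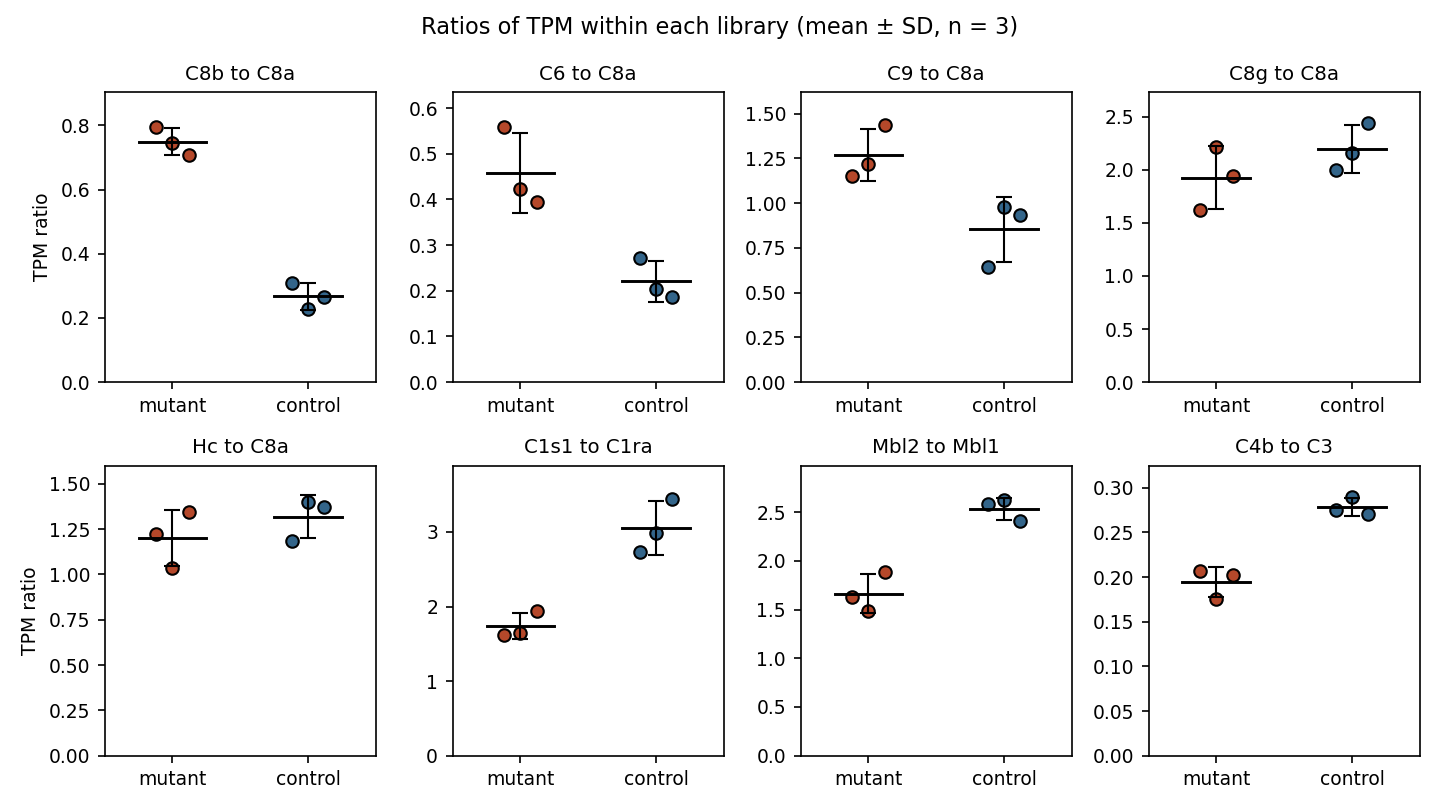
Ratios between pairs of complement genes within each library, in TPM; points are libraries, with mutant livers left of control livers, horizontal bars are means, whiskers are the SD (n = 3), and each axis starts at 0. The ratio of C8b to C8a is 0.708 to 0.794 in mutant livers and 0.227 to 0.308 in control livers.

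Of the 5 genes of the C1 complex, 2 fell, 2 did not pass and 1, C1ra, rose, with a sign that turned on the log2(TPM + 1) scale. The C1q chains lie side by side on the minus strand of chromosome 4 (C1qa at chr4:136895917-136898803, C1qc at chr4:136889804-136893065 and C1qb at chr4:136880129-136886187). C1qb had 23.6, 20.3 and 28.4 CPM in mutant livers, against 50.4, 38.3 and 36.7 CPM in control livers. Every mutant library was below every control, and C1qb fell by 0.79 ± 0.17 on the log2 scale (adjusted p = 0.0196), a call lost without mutant replicate 1 or control replicate 1. C1qc had 22.6, 17.8 and 23.2 CPM in mutant livers, against 41.9, 36 and 27.4 CPM in control livers. The groups were apart here too, and C1qc fell by 0.73 ± 0.18 (adjusted p = 0.0314), a call lost without mutant replicate 1 or 2 or control replicate 1 or 2. C1qa had 26.2, 16.7 and 29.0 CPM in mutant livers, against 48.2, 38.3 and 27.7 CPM in control livers. Its groups overlapped, and the log2 fold change of -0.67 ± 0.25 did not pass (adjusted p = 0.113). The ratios of C1qb and of C1qc to C1qa overlapped between the groups.

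The C1q chains were set beside the markers of the cells that make them. Summed, the chains had 72.4, 54.8 and 80.6 CPM in mutant livers, against 140.4, 113 and 91.7 CPM in control livers, a ratio of means of 0.603. The 10 Kupffer cell markers summed to 258, 142 and 265 CPM in mutant livers, against 467, 328 and 291 CPM in control livers, a ratio of 0.611. Of these markers 0 rose, 2 fell (Cd5l, a secreted macrophage protein, by 0.93 and the lysosomal Cd68 by 1.12 on the log2 scale) and 8 did not pass, and their median log2 fold change was -0.71. Single markers ranged from -1.12 to 0.35, so not all of them leaned lower. The call for Cd5l was lost on leaving out any library other than mutant replicate 3, and that for Cd68 without control replicate 1 or 2. The ratio of summed C1q to summed Kupffer markers was 0.281, 0.386 and 0.304 in mutant livers, against 0.3004, 0.343 and 0.315 in control livers, and the groups overlapped. The part of the markers in the fall of C1q was not tested. In bulk liver RNA, fewer cells of a type and less RNA per cell cannot be told apart. Markers of monocyte-derived macrophages were lower as well, with 20.96, 21.9 and 19.9 CPM in mutant livers, against 52.9, 54.5 and 43.7 CPM in control livers. Of those 8 markers 5 fell, Ccr2, Lgals3 and Itgax among them, and 3 did not pass. Of 8 neutrophil markers 4 were tested, of which S100a8 and S100a9 fell and 2 did not pass. The call for S100a9 was lost on leaving out any library, and that for S100a8 without mutant replicate 1 or any control library. The whole list summed to 2.41, 1.83 and 1.52 CPM in mutant livers, against 5.48, 6.48 and 6.12 CPM in control livers. The 8 hepatocyte markers gave 4 calls higher and 0 lower with TMM scaling, Hnf4a among the higher ones, and summed to 99458, 91595 and 103613 CPM in mutant livers, against 85968, 88025 and 97812 CPM in control livers, with overlap. The call for Hnf4a was lost with library totals and on the log2(TPM + 1) scale, where its log2 fold change was 0.071.

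The proteases of C1 lay on opposite sides of their controls. C1ra, the protease that C1q activates, had 287, 301 and 295 CPM in mutant livers, against 238, 228 and 173 CPM in control livers. C1s1, which C1r cleaves in turn and which lies 6.90 kb from C1ra on chromosome 6, had 396, 422 and 487 CPM in mutant livers, against 552, 578 and 506 CPM in control livers. The groups were apart in both genes, with C1ra higher and C1s1 lower in every mutant library. C1ra passed the test (log2 fold change 0.47 ± 0.13, adjusted p = 0.0429), but no longer so with library totals or when any library was left out. Its sign turned to -0.11 on the log2(TPM + 1) scale. C1s1 did not pass (-0.33 ± 0.11, adjusted p = 0.0792). Within libraries the TPM ratio of C1s1 to C1ra was 1.62, 1.65 and 1.94 in mutant livers, against 2.73, 2.99 and 3.44 in control livers, without overlap. Both genes have close copies, C1rb (97.9% identical to C1ra over the aligned transcript) and C1s2 (95.9% identical to C1s1), so their values are uncertain where reads could fit either copy.

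Of 6 lectin pathway genes, Colec10 fell, 4 did not pass and Masp2 rose, with a sign that turned at library totals and on the log2(TPM + 1) scale. Colec10, a collectin reported in stellate cells of mouse liver, had 6.46, 6.20 and 11.2 CPM in mutant livers, against 25.4, 16.8 and 31.6 CPM in control livers. The highest mutant library was below the lowest control, and Colec10 fell by 1.63 ± 0.29 on the log2 scale (adjusted p = 0.0104), a call kept under all 6 alternative scalings and with each library left out. The 10 stellate cell and fibroblast markers summed to 166, 218 and 193 CPM in mutant livers, against 450.4, 453 and 458 CPM in control livers. Of these 9 fell, with Col1a1 (collagen) lower by 2.72 and Ecm1 by 1.09 on the log2 scale, and 1 did not pass. The ratio of Colec10 to those markers overlapped between the groups, and the part of the markers in the fall of Colec10 was not tested.

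The mannose-binding lectins Mbl1 and Mbl2, hepatocyte proteins that bind microbial sugars, leaned apart. Mbl1 had 155, 171 and 145 CPM in mutant livers, against 121, 138 and 123 CPM in control livers. Mbl2 had 198, 199 and 214 CPM in mutant livers, against 245, 285 and 233 CPM in control livers. Mbl1 was higher and Mbl2 lower in every mutant library, but neither passed the test (log2 fold changes 0.30 ± 0.10 and -0.32 ± 0.10, adjusted p = 0.0873 and 0.0757). Within libraries the TPM ratio of Mbl2 to Mbl1 was 1.63, 1.48 and 1.88 in mutant livers, against 2.58, 2.62 and 2.41 in control livers, without overlap. Ficolin A, encoded by Fcna and made by macrophages, had 11.2, 12.5 and 16.6 CPM in mutant livers, against 24.8, 16.5 and 20.9 CPM in control livers. A single mutant library reached into the control range, and the log2 fold change of -0.63 ± 0.20 did not pass (adjusted p = 0.0698), while the ratio of Fcna to the Kupffer markers overlapped between the groups. Masp1, a protease that activates the lectin pathway, had overlapping groups (log2 fold change -0.046 ± 0.11, adjusted p = 0.835). Masp2, which cleaves C4 and C2, had 213, 219 and 214 CPM in mutant livers, against 171, 170.1 and 171 CPM in control livers. It rose by 0.33 ± 0.079 (adjusted p = 0.0291), but the call was lost when any library was left out and the sign turned at library totals (-0.063) and on the log2(TPM + 1) scale (-0.26). Masp2 shares 54.9% of its exon bases with Tardbp on the opposite strand, and the strandedness of the libraries is not given in the sources used here, so its value is uncertain.

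**Figure D4:**
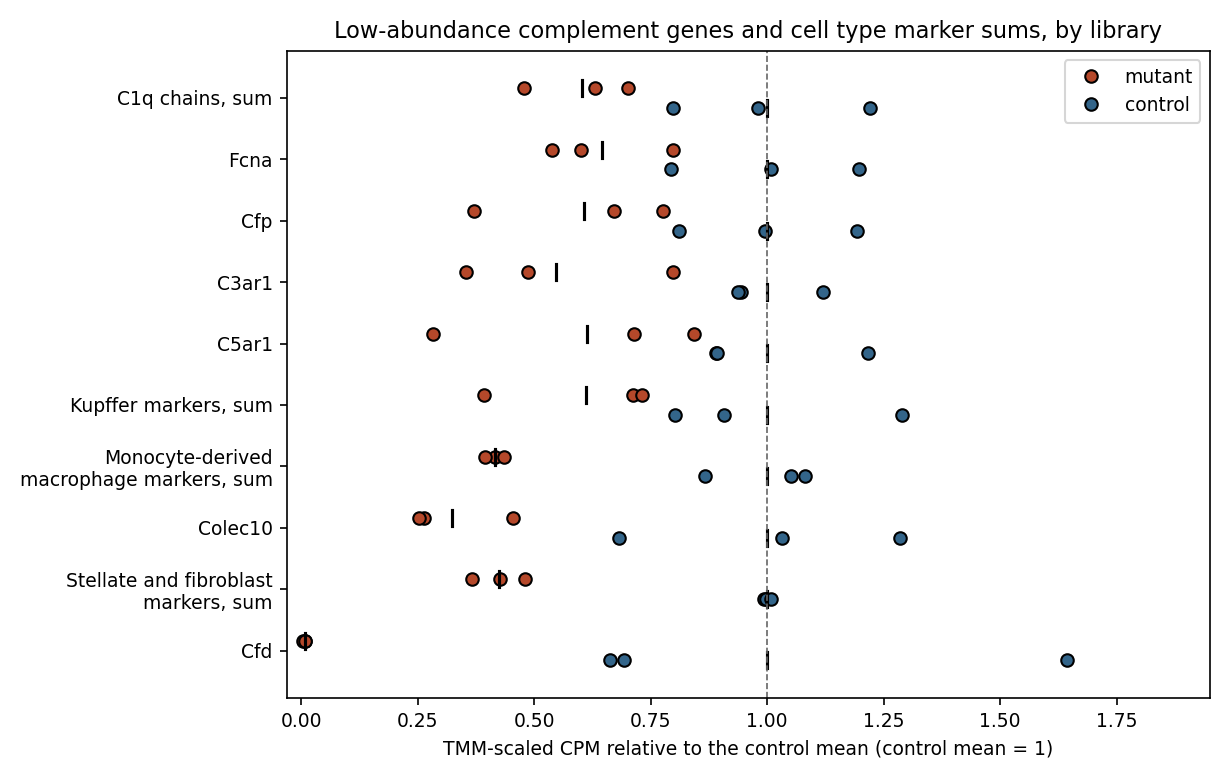
Levels of the less abundant complement genes and the summed markers of macrophages and stellate cells in every library, as TMM-scaled CPM divided by the control mean (horizontal axis, control mean = 1); points are libraries, with mutant above control in each row, and vertical ticks are means. The mutant means of the C1q sum and of the Kupffer marker sum lie at 0.603 and 0.611 of the control means, and the mutant points of Cfd lie close to 0.

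C2, C4b and C3 encode parts of the convertases of the classical and lectin pathways. Among these genes and C4a, only C3 passed the test. C3 had 7781, 6179.6 and 8304 CPM in mutant livers, against 5226, 5683 and 4810.0 CPM in control livers. All mutant libraries were above all controls, with mutant replicate 2 nearest to them, and C3 rose 1.42-fold (log2 fold change 0.50 ± 0.13, adjusted p = 0.0405), although on the log2(TPM + 1) scale the log2 fold change was -0.10. The call was lost with library totals, with or without the Mup genes, and on leaving out any library other than mutant replicate 2. C4b, the main C4 gene, had 1785, 1207 and 1867 CPM in mutant livers, against 1598, 1829 and 1448 CPM in control livers. Its groups overlapped, with a log2 fold change of -0.0049 ± 0.17 (adjusted p = 0.988). Relative to C3 in the same library, C4b was nonetheless lower in mutant livers, with TPM ratios of 0.206, 0.176 and 0.202 in mutant livers, against 0.275, 0.290 and 0.271 in control livers. C4a, which encodes the sex-limited protein, a C4 relative, did not pass (-0.27 ± 0.19, adjusted p = 0.379) and is 95.9% identical to C4b over 5378 aligned bases, so the split of reads between them is uncertain. C2, the protease of the C3 convertase, had 107, 108 and 96.9 CPM in mutant livers, against 90.4, 84.6 and 56.3 CPM in control livers. Its groups did not overlap, but the log2 fold change of 0.43 ± 0.17 did not pass (adjusted p = 0.131).

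Of the 3 alternative pathway genes, 1 fell and 2 did not pass. Cfd encodes factor D, the protease that cuts factor B, and is known as adipsin for its high expression in adipocytes. It had 4.78, 2.06 and 4.14 estimated counts in mutant livers, against 1086, 424 and 443 estimated counts in control livers, or 0.131, 0.0620 and 0.129 CPM in mutant livers, against 23.6, 9.51 and 9.97 CPM in control livers. The gene was nearly silent in all mutant libraries and present in all controls, highest in control replicate 1. Its mean level was 134 times lower in mutant livers (log2 fold change -7.01 ± 0.54, adjusted p = 0.000345). Without control replicate 1 the log2 fold change was -6.45, and the call held under every setting run. The adipocyte markers Adipoq, Lep, Retn and Plin1 were at or near 0 in the livers of both groups, with at most 0.0615 TPM for Adipoq in mutant livers and at most 0.184 TPM for Plin1 in control livers. The remaining adipocyte markers, Fabp4 and Cidea, which fat-laden liver also expresses, both fell, Fabp4 by 1.59 and Cidea by 6.82 on the log2 scale. Cidea was highest in control replicate 3, without which its log2 fold change was -5.54. The call for Fabp4 was lost without mutant replicate 1 or 3 or control replicate 1 or 3. Their part in the fall of Cfd was not tested.

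Cfb, the substrate of factor D and part of the alternative C3 convertase, was abundant and did not pass, with 961, 979 and 1016 CPM in mutant livers, against 938, 983 and 786 CPM in control livers and a log2 fold change of 0.13 ± 0.11 (adjusted p = 0.471). Per C3 transcript it was lower in every mutant library, with TPM ratios of 0.239, 0.306 and 0.236 in mutant livers, against 0.347, 0.334 and 0.316 in control livers. Cfb and C2 lie 85 bases apart on chromosome 17. Cfp encodes properdin, a leukocyte protein that stabilises this convertase, and had 10.2, 5.61 and 11.7 CPM in mutant livers, against 18.0, 15.0 and 12.3 CPM in control livers. The groups did not overlap, but the log2 fold change of -0.72 ± 0.27 did not pass (adjusted p = 0.115), and its ratio to the Kupffer markers overlapped between the groups.

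Among the 6 soluble regulators 3 rose (Cfhr2 with a sign that turned on the log2(TPM + 1) scale), 0 fell and 3 did not pass. Vtn, which encodes vitronectin, a plasma protein that keeps terminal complexes out of membranes, had 2034, 1834 and 2052 CPM in mutant livers, against 1262, 1434 and 1201 CPM in control livers. Serping1, the gene of C1 inhibitor, had 868, 781 and 837 CPM in mutant livers, against 607, 570.5 and 438 CPM in control livers. Cfhr2, a factor H-related gene, had 428, 513 and 499 CPM in mutant livers, against 316, 296 and 339.7 CPM in control livers. The groups were apart in all 3, and the log2 fold changes were 0.60 ± 0.10 for Vtn (adjusted p = 0.00901), 0.62 ± 0.13 for Serping1 (adjusted p = 0.0186) and 0.60 ± 0.10 for Cfhr2 (adjusted p = 0.00938). None of these 3 calls held with library totals or on the log2(TPM + 1) scale, and on the latter Cfhr2 stood at -0.0018. That for Serping1 was also lost with the Mup genes left out of the totals, and without mutant replicate 1. Clu, the gene of clusterin, a further inhibitor of the terminal complex, was without overlap at 1536, 1728 and 1570.1 CPM in mutant livers, against 1288, 1483 and 1091 CPM in control livers, but did not pass (adjusted p = 0.127). Cfi, the protease that inactivates C3b and C4b, and C4bp, its cofactor, overlapped between the groups, with log2 fold changes of 0.14 ± 0.10 (adjusted p = 0.406) and 0.073 ± 0.10 (adjusted p = 0.670).

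The regulators on cell membranes and the receptors for the C3a and C5a fragments gave no call. Cd55, which speeds the decay of convertases, had a log2 fold change of -0.70 ± 0.27 (adjusted p = 0.128) with overlapping groups. Cd59a, which blocks the insertion of C9, differed by -0.032 ± 0.12 (adjusted p = 0.894). Cr1l, the gene of the rodent regulator Crry, had 45.4, 43.1 and 39.3 CPM in mutant livers, against 33.6, 33.5 and 38.3 CPM in control livers, without overlap, and did not pass (0.28 ± 0.11, adjusted p = 0.133). Among the receptor genes, carried by myeloid cells, C3ar1 had 1.83, 1.33 and 3.00 CPM in mutant livers, against 3.55, 3.52 and 4.21 CPM in control livers. C5ar1 had 1.26, 0.496 and 1.48 CPM in mutant livers, against 1.57, 1.57 and 2.14 CPM in control livers. Every mutant library was below every control in both, at log2 fold changes of -0.87 ± 0.33 (adjusted p = 0.122) and -0.70 ± 0.46 (adjusted p = 0.353). The ratios of both to the Kupffer markers overlapped between the groups. Cd55 and Cd59a have close copies (Cd55b, 93.0% identical, and Cd59b, 83.2% identical), so their values are uncertain.

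A list of 23 other complement genes was looked at beside the 36. In it, 22 were found in the tables, 16 were tested, 3 rose, 3 fell and 10 did not pass, with a median log2 fold change of 0.14. The shares over all tested genes were 6.64% higher and 6.82% lower. Susd4, a membrane inhibitor of complement, had 65.3, 63.9 and 69.7 CPM in mutant livers, against 25.2, 14.1 and 10.1 CPM in control livers. It was higher in every mutant library and rose 4.03-fold (log2 fold change 2.01 ± 0.29, adjusted p = 0.00439). Colec11, a collectin whose product joins that of Colec10 in human plasma, had 14.6, 18.6 and 13.7 CPM in mutant livers, against 30.1, 28.3 and 28.1 CPM in control livers. It was lower in every mutant library and fell by 0.88 ± 0.14 (adjusted p = 0.00604). Itgb2, the shared chain of complement receptors 3 and 4 on leukocytes, fell by 1.34 on the log2 scale, a call that did not hold without mutant replicate 1 or 2 or control replicate 1 or 2. Cpn2 (log2 fold change 0.56) and Cd93 (-0.92) were also called and were named after their values were seen. In TPM the groups overlapped for Cpn2, with 90.5 ± 13.5 TPM in mutant livers and 92.3 ± 11.9 TPM in control livers.

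The number of complement genes called higher or lower depended on the scaling of the libraries. TMM scaling gave 12 higher and 4 lower. Library totals gave 4 higher and 15 lower (2.05% of all tested genes higher and 31.6% lower), library totals without the Mup genes gave 6 and 10 (2.82% and 13.7%), and log2(TPM + 1) in limma gave 3 and 22 (1.88% and 63.6%). Of the 16 genes called with TMM scaling, 7 were called in the same direction under all 6 alternative scalings, namely C6, C8b, C9, C1qb, C1qc, Colec10 and Cfd. Relative to the all-gene median in the same setting, 15 of the 16 kept their sign in every alternative, the exception being Masp2. With each library left out in turn as well, 5 of the 7 remained called, C6, C8b, C9, Colec10 and Cfd.

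**Figure D5:**
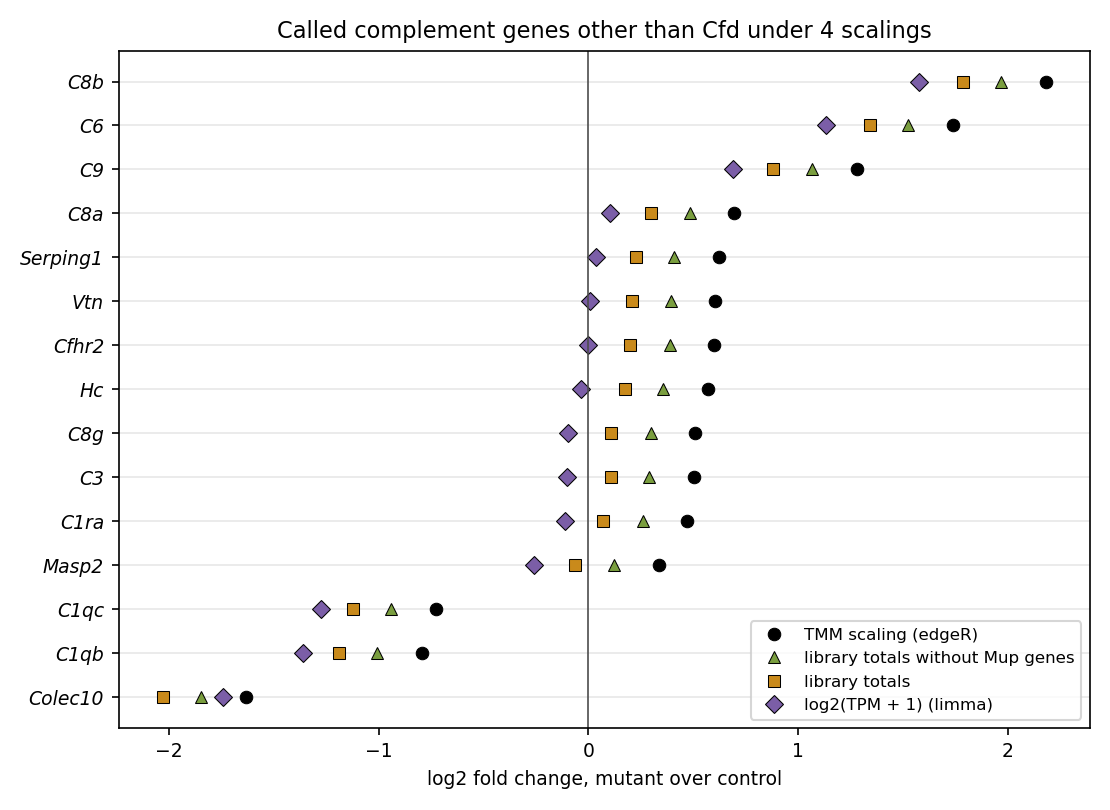
Log2 fold change, mutant over control, of the complement genes called with TMM scaling, other than Cfd, under 4 scalings (horizontal axis; 1 symbol for each scaling, 1 row for each gene). C8b, C6 and C9 stay right of 0 and C1qb, C1qc and Colec10 left of it under all 4. C3, Hc, C8g, C1ra, Cfhr2, Vtn, Serping1 and C8a lie near 0 or cross it on the log2(TPM + 1) scale, where the median of all genes was -0.48. Masp2 crosses it to -0.26 on that scale.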

How the data were processed

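Poly(A)-enriched liver RNA was read as paired ends on a NovaSeq6000, per the labels' protocols. The genome build was mm10 and the tools named are cutadapt and STAR, per the submitters' processing notes. The quantifier, annotation release and strandedness are among the details not given in the sources used here. Estimated counts and TPM per gene, in separate tables, are what the authors deposited. Over 10983 genes with TPM above 0.5 in every library, the deposited estimated counts equalled TPM times a gene factor and a library factor (largest relative deviation 5.72e-10), so they only approximate read numbers.

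Columns were matched to libraries by title, and groups follow the titles. Rounded estimated counts entered edgeR 4.0.16 (R 4.3.3), with filterByExpr on group, TMM scaling, and a quasi-likelihood F-test with group as the only term, with Benjamini-Hochberg adjustment over 14286 genes. Standard errors of log2 fold changes follow from the F statistic. Alternatives were RLE size factors, library totals with and without Mup genes, no filter on low counts, DESeq2 1.42.0, a replicate block, omission of each library, and limma 3.58.1 on log2(TPM + 1) or log2(TPM + 0.1) over genes that reached 1 TPM in 3 libraries, or over all genes. The procedure was tested on simulated data without a shift such as that of the Mup genes, so the choice of scaling was not tested there.

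The 36 complement genes, their roles and the marker lists were chosen with earlier results of these data known. All 36 were named, with Rxra and up to 4 called genes of each other list by smallest p, and defining cell type markers at or near 0. A gene that this rule also selects is not reported here. Coordinates are from GENCODE M21 (mm10), and 99.5% of gene identifiers were found there. Promoter sequences are from RefSeq (GRCm38.p6).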

Additional observations from a re-analysis of the deposited data

How the results depend on the processing

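The scaling of the libraries had the widest effect. Against 1923 genes called in all, library totals gave 4801, limma on log2(TPM + 1) 7579, on log2(TPM + 0.1) 7526 and without a filter 6581, and leaving out a library gave 882 to 1514. Complement genes called higher, 12 with TMM scaling, were 4 with library totals, 6 without Mup genes in the totals, 3 in each limma fit and 7 to 9 with a library left out. Of all tested genes, 1.82% were called higher in limma on log2(TPM + 0.1), 0.833% in limma without a filter and 2.87% to 5.10% with a library left out. Those called lower, 4 with TMM scaling, were 15 with library totals, 10 without Mup genes, 7 with no filter (5.45% of all tested genes called lower), 8 with DESeq2 (10.3%), 22, 22 and 19 in the limma fits (63.6%, 63.2% and 28.0%) and 2 to 7 with a library left out (2.93% to 5.09%). Of the other complement genes 6 were called, against 13.5% of all tested genes. The count was 10 in DESeq2 (19.7% of all tested genes) and 12 in limma without a filter (28.9%). It was 3 to 5 with a library left out (5.94% to 10.2%). Same-numbered mutant and control libraries showed little joint deviation (correlations 0.0167, -0.0032 and 0.0634). With 3 libraries in each group these values cannot exclude that the numbers pair them. With the replicate number as a block, 1558 genes were called in all, 9 complement genes higher (5.42% of all tested genes) and 4 lower (5.48%), and the calls for C1ra, C3 and Masp2 were lost.

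Log2 fold changes that changed sign, mutant over control, were as follows. With library totals they were -0.097 for Mbl1, -0.063 for Masp2, -0.27 for Cfb, -0.26 for C7, -0.26 for Cfi, -0.32 for C4bp, -0.074 for Clu and -0.12 for Cr1l. Without Mup genes in the totals they were -0.084 for Cfb, -0.082 for C7, -0.073 for Cfi and -0.14 for C4bp. In limma on log2(TPM + 1), with and without a filter, they were -0.11 for C1ra, -0.29 for Mbl1, -0.26 for Masp2, -0.14 for C2, -0.10 for C3, -0.46 for Cfb, -0.035 for Hc, -0.097 for C8g, -0.46 for Cfi, -0.52 for C4bp, -0.26 for Clu, -0.0018 for Cfhr2, -0.31 for Cr1l and -0.20 for Rxra, and without a filter also -0.15 for C7. The fit on log2(TPM + 0.1) gave the same signs, with -0.30 for Mbl1, -0.53 for C4bp, -0.32 for Cr1l and values within 0.01 of those above for the other genes. With a library left out, C4b was 0.16 without mutant replicate 2 and 0.090 without control replicate 2, C4bp ranged from -0.00061 (without mutant replicate 1) to 0.12, C7 from -0.15 (without mutant replicate 3) to 0.39 with -0.010 without control replicate 3, and without control replicate 3 Masp1 was 0.014 and Cd59a 0.098.

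Among 838 values of 56 named genes under 15 alternatives, 612 kept their direction and side of the threshold, 100 were no longer called, 64 were newly called and 62 changed sign. The cause was not tested. On the log2 scale the all-gene median was -0.40 with library totals, -0.21 without Mup genes in the totals, and -0.48, -0.55 and -0.24 in the limma fits. With 3 libraries in each group, estimated counts were lowest for C7, C3ar1, C5ar1 and, in mutant livers, Cfd.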

Other observations

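Genes of the acute phase and interleukin 6 response, a program of hepatocytes that also drives several complement genes, were looked at as a further list of 21 genes. Of these 2 were called higher, 3 lower and 16 did not pass, with a median log2 fold change of -0.06. Of all tested genes, 6.64% were called higher and 6.82% lower. Saa1, Hp, Crp, Orm1, Fga, Fgb and Fgg were among those that did not pass. Lcn2, which encodes an iron-siderophore binding protein, had 10.4, 9.45 and 16.4 CPM in mutant livers, against 64.9, 87.6 and 35.3 CPM in control livers. Every mutant library was below every control, and Lcn2 fell by 2.37 ± 0.34 on the log2 scale (edgeR adjusted p = 0.00420). Orm2, an orosomucoid gene, had 3.98, 5.42 and 6.87 CPM in mutant livers, against 25.2, 41.5 and 16.4 CPM in control livers. It fell by 2.36 ± 0.34 (adjusted p = 0.00456), also without overlap. Apcs, the gene of serum amyloid P, a pentraxin that binds C1q, fell by 0.75 ± 0.18 (adjusted p = 0.0314), a call lost on leaving out any 1 of the control libraries. Il6ra, the interleukin 6 receptor, had 91.5, 46.8 and 115 CPM in mutant livers, against 38.5, 26.4 and 36.04 CPM in control livers. Its log2 fold change of 1.33 ± 0.30 passed (adjusted p = 0.0248), but no longer so on leaving out any library other than mutant replicate 2. On the log2(TPM + 1) scale the log2 fold change of Il6ra was 0.61 and was not called (limma adjusted p = 0.123). Itih3, named after its values were seen, completes the called genes with a log2 fold change of 0.74. Its groups overlapped in TPM, with 360 ± 97.0 TPM in mutant livers and 324 ± 41.5 TPM in control livers.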
